A study of Mus musculus with 7 samples.

Results

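Mettl3 hairpin 1 was compared with a luciferase hairpin in J-1 cells, a line of mouse embryonic stem cells. The comparison comprises the 5 arrays labelled with these hairpins: 2 of hairpin 1 and 3 of luciferase, out of 7 arrays in the series. All cells of both groups had been infected with a lentivirus carrying a short hairpin RNA and were grown in full medium, and the groups differ in the hairpin: Mettl3 shRNA number 1 in the one, and a shRNA against luciferase, an insect enzyme that mouse cells lack, as the control. The remaining 2 arrays are of cells with Mettl3 shRNA number 2, and they serve here to show where hairpin 1 differs from a second hairpin against the same gene. The labels give neither the hairpin sequences nor the number of infections or viral insertions. They do not say either whether replicates are separate cultures, and p-values therefore reflect only how far these arrays differ, which may be technical scatter.

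RNA was hybridised to an exon array, on which most exons have a probe set of their own, and values are on the log2 scale, so a difference of 1 is a 2-fold change. A gene's value is the median of its probe sets, and 16353 genes were tested. Differences are given as hairpin 1 minus luciferase with their standard error, and a gene is called changed at an adjusted p below 0.05 in limma's moderated test over all 7 arrays. The median standard error of that difference was 0.110. The 10 markers of embryonic stem cells that were checked, Pou5f1, Nanog and Sox2 among them, averaged 12.15 to 12.30 on the luciferase arrays and 12.13 to 12.22 on the hairpin 1 arrays, and none was called. Luciferase replicate 3 and hairpin 1 replicate 2 stood apart from the other arrays on a principal component that held 21.4% of the variance and did not follow the groups.

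METTL3 is the catalytic subunit of the nuclear complex that methylates adenosine in RNA at the N6 position. The mark, m6A, is bound by reader proteins of the YTH family and is known to shorten the life of many messenger RNAs. In embryonic stem cells, transcripts of pluripotency factors carry it, and cells without it are known to leave the naive state poorly.

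Mettl3 RNA was lower on both hairpin 1 arrays. It stood at 10.38, 10.46 and 10.14 on the luciferase arrays and at 8.97 and 8.67 on the hairpin 1 arrays. The groups did not overlap, and the difference of -1.50 ± 0.125 (SE, limma adjusted p = 0.000361) is a 2.83-fold decrease. On the hairpin 2 arrays the gene stood at 8.71 and 8.66, and hairpin 1 minus hairpin 2 was 0.14 ± 0.137 (SE, adjusted p = 0.843). Every one of the 17 probe sets of Mettl3 was lower with hairpin 1, 13 of them by 1 or more, and 3 lay within 0.25 of no change. The other members of the writer complex were not called: 8 of 9 tested members, the scaffold gene Mettl14 among them, lay between -0.23 and 0.28. None of 12 readers and erasers of the mark was called, and the largest differences were the readers Hnrnpc (-0.31, adjusted p = 0.103) and Hnrnpa2b1 (-0.30, adjusted p = 0.188); 1 of the 12 was called lower after centring of the arrays.

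With hairpin 1, 964 of 16353 genes were called (5.89%), of which 649 rose (3.97%) and 315 fell (1.93%). Most changes were below 2-fold: the median size among called genes was 0.55, the smallest called difference was 0.34, and 38 genes rose and 13 fell by 1 or more. The hairpin 1 arrays lay outside the range of the luciferase arrays for all 964 called genes and for 38.2% of all genes tested. The count moved with single arrays: leaving out hairpin 1 replicate 1 gave 271, hairpin 1 replicate 2 450 and luciferase replicate 1 460, and it was 266 without the pair of arrays that stood apart. With dim probe sets kept the count was 320, and by a median polish of the probe sets 2072. The share of rises depended on the scaling, since 578 genes rose and 566 fell after centring every array on its median gene value.

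The largest rise was that of Kdm5d, a Y-linked gene for a histone H3 lysine 4 demethylase. It stood at 6.23, 6.53 and 6.55 with luciferase and at 8.76 and 8.53 with hairpin 1, a difference of 2.21 ± 0.125 (SE, limma adjusted p = 9.54e-05). All 19 of its probe sets were higher, 18 of them by 1 or more. Probe sets were kept by their mean over all 7 arrays, so the dimmest with luciferase were kept only because the Mettl3 hairpin arrays were higher. That which rose most, by 4.75, had a luciferase mean of 4.33. The count is therefore partly built in by the filter. Fndc3c1, an X-linked gene with fibronectin type III domains, stood at 6.09, 6.25 and 6.30 and then at 8.07 and 7.83, a difference of 1.73 ± 0.116 (SE, adjusted p = 0.000168). In both genes the 2 groups were separated by more than the spread within either.

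Bhlhe40, which encodes a basic helix-loop-helix repressor of the clock and hypoxia responses, stood at 6.78, 7.09 and 6.32 with luciferase and at 8.62 and 8.30 with hairpin 1 (1.73 ± 0.195, SE, adjusted p = 0.00159). Its luciferase arrays spread more widely than those of the other leading genes. Dppa3, which encodes a maternal factor that protects DNA methylation in the egg and early embryo, went from 8.13, 8.10 and 7.80 to 9.49 and 9.23 (1.35 ± 0.126, SE, adjusted p = 0.000622), and all 7 of its probe sets were higher. Tia1, which encodes an RNA-binding protein of stress granules, was higher by 1.31, with 27 of 28 probe sets higher. The semaphorin gene Sema6a rose by 1.49, the volume-regulated anion channel gene Lrrc8c by 1.29 and the X-linked zinc finger gene Zfp280c by 1.29.

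A few of the 15 largest rises rest on a part of the gene's probe sets. Csn3, the gene of kappa-casein, was at 2.02 from 3 probe sets, and at 0.01 (adjusted p = 0.977) when dim probe sets were kept. Aif1l was at 1.33, but only 2 of its 7 probe sets were higher by 1 or more, and a median polish, which follows each probe set across arrays, gave 0.19 (adjusted p = 0.0633). Gbp2, an interferon-inducible GTPase gene, was at 1.33 by the median and 0.70 (adjusted p = 0.000737) by the polish. Shisa6, which encodes a partner of glutamate receptors, was at 1.40, and at 0.43 (adjusted p = 0.0288) with a stricter filter on dim probe sets. Adjusted p-values of the 15 largest rises ranged from 9.54e-05 to 0.00159.

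**Figure D1:**
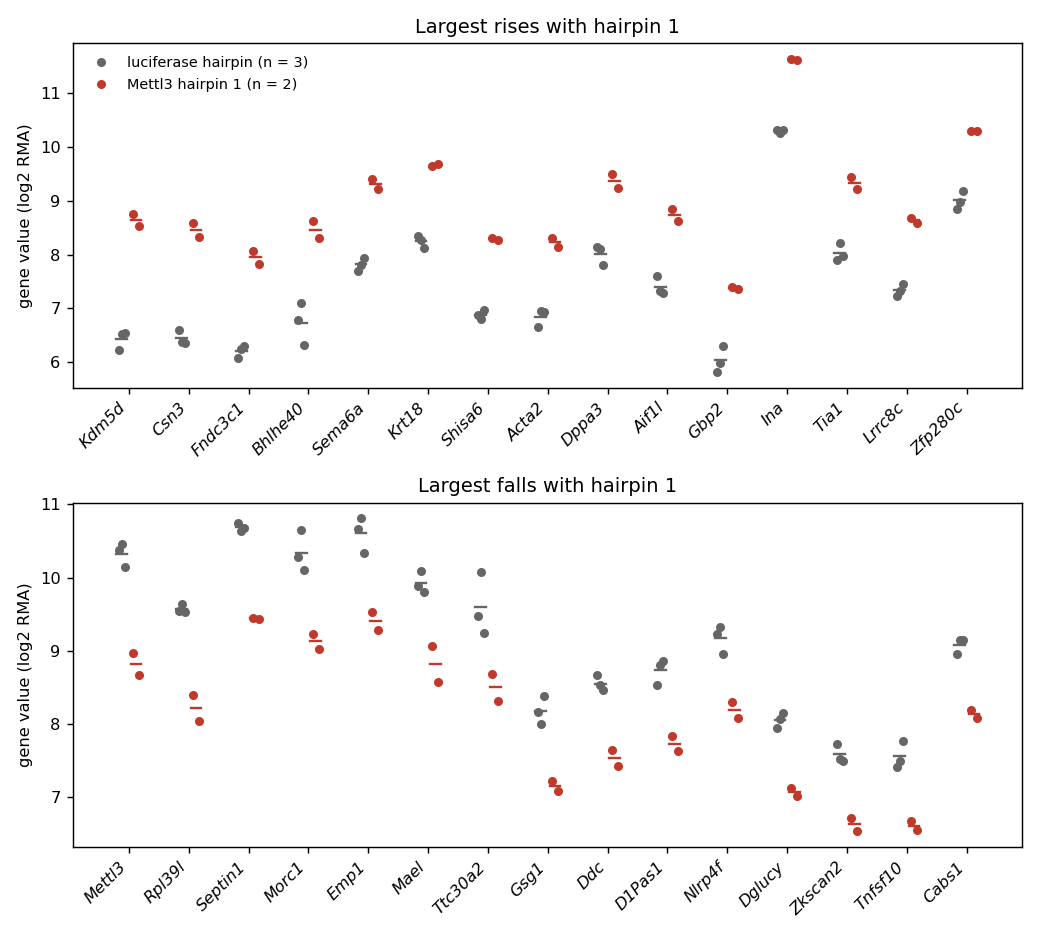
Values of the 15 genes with the largest rises (top) and the 15 with the largest falls (bottom) with hairpin 1. Each point is an array on the log2 RMA scale, grey for luciferase (n = 3) and red for hairpin 1 (n = 2), and each bar is a group mean. In all 30 genes the hairpin 1 points lie outside the range of the luciferase points.

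The falls after Mettl3 include genes known from the testis and the germ line. Rpl39l, a testis-enriched copy of a ribosomal protein gene, stood at 9.55, 9.64 and 9.53 with luciferase and at 8.39 and 8.04 with hairpin 1 (-1.36 ± 0.115, SE, limma adjusted p = 0.000361). Septin1, which encodes a filament-forming GTPase, went from 10.75, 10.63 and 10.68 to 9.45 and 9.44 (-1.24 ± 0.102, SE, adjusted p = 0.000361). Both genes had luciferase arrays within a narrow range, with the hairpin 1 arrays far below it.

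Morc1, a silencer of transposons in the male germ line, fell by 1.21, and all 31 of its probe sets were lower. D1Pas1, a testis-expressed DEAD-box helicase gene derived from Ddx3x, was at -0.999, and the germ cell-associated gene Gsg1 at -1.03. Gsg1 was at -0.54 (adjusted p = 0.0838) with dim probe sets kept. Nlrp4f, a gene of the NLRP family expressed in oocytes, was at -0.98, with all 13 probe sets lower. Outside the germ line, the membrane protein gene Emp1 (at -1.20), the aromatic amino acid decarboxylase gene Ddc (-1.02), the glutamate cyclase gene Dglucy (-0.98) and the zinc finger gene Zkscan2 (-0.96) fell.

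The values of Tnfsf10, Cabs1 and Ttc30a2 depended on the summary of probe sets. Tnfsf10, which encodes the death ligand TRAIL, was at -0.95 by the median and at -0.15 (adjusted p = 0.358) by the polish. Cabs1, a sperm calcium-binding protein gene with 3 probe sets, was at -0.95 by the median, -0.43 (adjusted p = 0.00817) by the polish and -0.26 (adjusted p = 0.442) with dim probe sets kept. Ttc30a2, a gene of intraflagellar transport, was at -1.10 by the median and -0.58 (adjusted p = 0.00448) by the polish, and its call was lost without hairpin 1 replicate 1 (adjusted p = 0.058) or hairpin 1 replicate 2 (0.113). Of the 964 genes called, 808 were also called by the polish, while 256 had a value more than 1.5 times smaller there and 5 had the opposite sign. Probe sets of genes with close copies elsewhere, such as Rpl39l, D1Pas1, Dppa3, Krt8 and Krt18, may also bind RNA of the copy.

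The genes of 40 lists were then read group by group. Of 652 tested members, 73 rose and 22 fell, together 14.6%, against 5.89% of all genes tested; the lists were drawn up with earlier results of these arrays known, so this share is a description. The median difference over all genes was -0.01, and -0.06 after centring. Every count of a list below stands against 3.97% of all tested genes that rose and 1.93% that fell. Among the members named below, the calls of Axl, Cd63, Crim1, Dnmt3l, Fgf15, Hey1 and Kdr were lost with any 1 of the 7 arrays left out, and those of Ddit4, Egr1, Ei24, Gbx2, Hdac2, Herpud1, Lin28b, Phlda2 and Wwc1 with 4 to 6 of them. Several list counts below were similar with hairpin 2, which shares the luciferase arrays. With it, 7 contractile, 4 keratin and junction, 4 neuronal cytoskeleton, 4 Hedgehog, 3 Notch and 5 imprinted members rose. In those lists none fell with hairpin 2. Rises were fewer with it among formative and primed genes (1), ATF4 targets (1), Nodal genes (0) and immediate early genes (0). Over all genes, 443 rose and 176 fell with hairpin 2.

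A part of the contractile and cytoskeletal genes rose. Serum response factor, or SRF, and its actin-regulated partners drive genes of the actin cytoskeleton and of smooth muscle in many cell types. Of 24 tested members of this list, 8 rose and none fell (median 0.21), and the hairpin 1 arrays lay above all luciferase arrays for 15, against 20.9% of all genes. Acta2, the smooth muscle actin gene, stood at 6.65, 6.94 and 6.94 with luciferase and at 8.31 and 8.14 with hairpin 1 (1.38 ± 0.124, SE, limma adjusted p = 0.000512). Tagln, the gene of the actin-binding protein transgelin, went from 6.98, 7.01 and 7.03 to 8.31 and 8.08 (1.19 ± 0.1, SE, adjusted p = 0.000361), and Tpm1, a tropomyosin gene, from 8.73, 8.70 and 8.72 to 9.89 and 9.75 (1.10 ± 0.103, SE, adjusted p = 0.000622). The groups did not overlap in any of the 3. The other 5 members called were higher by 0.43 to 1.05. With any single array left out, 4 to 7 members of the list were called, and 5 without the pair that stood apart. Tagln was at 0.88 (adjusted p = 0.09) with dim probe sets kept.

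Smooth muscle genes are also expressed by fibroblasts, which serve as feeder cells. Of 12 feeder markers, 10 were tested and none was called; their mean level was 7.41 to 7.53 on the luciferase arrays, 7.33 to 7.47 on the hairpin 1 arrays and 7.29 to 7.33 on the hairpin 2 arrays. The largest differences were those of Dcn (0.24, adjusted p = 0.336) and the collagen gene Col1a2 (-0.23, adjusted p = 0.186), and the latter was at -0.01 (adjusted p = 0.986) with dim probe sets kept. In such bulk samples, a change in the number of cells of a type and a change of RNA per cell cannot be told apart.

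A CArG box, the DNA element that SRF binds, lay within the 250 bases before 9 of 24 RefSeq starts of the tested members of the contractile list (37.5%), against 1.19% of 16240 starts of all tested genes. By gene, it was found for 8 of 20 members (40%). The list was made up of SRF targets and contractile genes, so a high share follows from its choice and is no result of hairpin 1. Among the starts of members that rose, 2 of 8 held it (25%), or 2 of 7 by gene, those of the focal adhesion gene Vcl (0.43, adjusted p = 0.0371) and the calponin gene Cnn2 (0.44, adjusted p = 0.0397), genes named here for this match. A CArG box reads as such on both strands, so the search covers both. Both promoters are shown because they carry the element at genes that rose; RefSeq sequence of GRCm38.p6, 5′ to 3′ toward the start, at chr14:20929148-20929397 on the plus strand and chr10:79988350-79988599 on the plus strand, with the CArG box and any GCGGGA or its reverse complement TCCCGC in capitals.
Vcl: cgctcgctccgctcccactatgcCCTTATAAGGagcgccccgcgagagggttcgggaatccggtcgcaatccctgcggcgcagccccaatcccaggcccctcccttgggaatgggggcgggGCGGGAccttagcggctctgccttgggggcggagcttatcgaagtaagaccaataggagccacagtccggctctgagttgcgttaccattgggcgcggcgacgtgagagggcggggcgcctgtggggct
Cnn2: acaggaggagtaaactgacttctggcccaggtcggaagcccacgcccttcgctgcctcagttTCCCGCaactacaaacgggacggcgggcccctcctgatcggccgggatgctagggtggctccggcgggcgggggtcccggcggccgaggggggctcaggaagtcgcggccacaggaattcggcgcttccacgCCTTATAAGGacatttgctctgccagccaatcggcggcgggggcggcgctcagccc
The same 10 letters, CCTTATAAGG, form the box in both. A match describes the letters in the window and no binding was measured here.

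Some epithelial genes rose as well. Keratins 8 and 18 form the first intermediate filaments of the embryo and of simple epithelia. Of 19 tested keratin and junction genes, 5 rose and none fell (median 0.30). For 14 the hairpin 1 arrays lay above all luciferase arrays, against 20.9% of all genes. Krt18 went from 8.34, 8.27 and 8.12 to 9.65 and 9.68 (1.42 ± 0.101, SE, limma adjusted p = 0.000189), and Krt8 from 9.34, 9.28 and 9.16 to 10.40 and 10.49 (1.18 ± 0.0997, SE, adjusted p = 0.000361). Neither gene's groups overlapped. The tight junction gene Ocln was higher by 0.58 (adjusted p = 0.0102), a call lost without hairpin 1 replicate 2 (0.070). With 1 array left out, 3 to 5 members were called. None of 9 trophectoderm genes was called, and the largest differences were Cdh3 (0.38, adjusted p = 0.0676) and Hand2 (-0.36, adjusted p = 0.0585), while the polish called 2 higher and centring 1 lower.

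Of 20 integrin and matrix adhesion genes, 4 rose and none fell (median 0.05). Thbs1, the gene of the matrix protein thrombospondin-1, stood at 7.85, 7.80 and 7.80 with luciferase and at 8.73 and 8.71 with hairpin 1 (0.90 ± 0.0871, SE, limma adjusted p = 0.000717). Parva, which links integrins to actin, rose by 0.77 and the collagen receptor gene Itga1 by 0.59. With 1 array left out, 2 to 4 members were called, and by the polish 8 rose and 2 fell. Targets of the YAP and TEAD factors, which respond to cell tension, had 3 of 15 members higher and none lower (median 0.06): Crim1 (0.47), Wwc1 (0.45; 0.27 (adjusted p = 0.0198) by the polish) and the receptor kinase gene Axl (0.39). At most 1 of these was called with any array left out, and Crim1 was at 0.20 (adjusted p = 0.171) by the polish.

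Neuronal cytoskeleton genes rose in 6 of 15 tested members and fell in 1 (median 0.24). Ina, the gene of the neurofilament protein alpha-internexin, stood at 10.31, 10.25 and 10.31 and then at 11.63 and 11.61 (1.33 ± 0.0874, SE, limma adjusted p = 0.000168), with both groups within narrow ranges. Nefl, the light neurofilament gene, was at 0.70 by the median and 0.35 (adjusted p = 0.00684) by the polish. The microtubule-associated gene Map1b was at 0.77 and, with dim probe sets kept, at -0.37 (adjusted p = 0.485). The 14 tested neural transcription factor genes gave no call; Sox11 (0.43, adjusted p = 0.0609) and Pax7 (-0.40, adjusted p = 0.0686) differed most. The list of cytoskeletal genes had 2 rises left without hairpin 1 replicate 1 and 5 or 6 without any other single array.

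A part of the germ cell and meiosis genes fell. Promoter methylation and a noncanonical Polycomb complex with the E-box factor MGA are known to hold down many such genes in embryonic stem cells. Of 29 tested members, 9 fell and none rose (median -0.32), and for 18 the hairpin 1 arrays lay below all luciferase arrays, against 17.3% of all genes. Mael, a gene of the piRNA pathway, stood at 9.89, 10.09 and 9.80 with luciferase and at 9.07 and 8.58 with hairpin 1 (-1.11 ± 0.145, SE, limma adjusted p = 0.00303). Dazl, a germ cell regulator of translation, went from 9.50, 9.60 and 9.46 to 8.67 and 8.52 (-0.93 ± 0.0972, SE, adjusted p = 0.00113), and Sycp2, of the synaptonemal complex, from 7.32, 7.35 and 7.58 to 6.91 and 6.43 (-0.75 ± 0.146, SE, adjusted p = 0.0174). The groups did not overlap, but the hairpin 1 replicates of Sycp2 lay apart from each other, and its call was lost without hairpin 1 replicate 2 (-0.51, adjusted p = 0.098).

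The other 6 members that fell lay between -0.46 and -0.69. With single arrays left out 4 to 9 members were called, all of them lower, and 13 after centring. The median over the same 29 genes was -0.12 with hairpin 2, which shares the luciferase arrays, and -0.23 for hairpin 1 minus hairpin 2, where none was called. Falls were not particular to hairpin 1: with hairpin 2, 5 of the 29 were called lower and 1 higher. Over all 16353 genes, 176 were lower and 443 higher with hairpin 2.

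The E-box CACGTG, which reads alike on both strands, lay in the 250 bases before 13 of 29 RefSeq starts of this list (44.8%), against 7.80% of the starts of all genes tested. GCGGGA, the core of an E2F site, was searched on both strands and lay before 10 of 29 (34.5%) against 26.6%. A gene can have several starts: by gene, the E-box was found for 10 of 24 (41.7%) against 9.31% and GCGGGA for 9 of 24 (37.5%) against 30.6%. Each motif was found for 4 of the 9 members that fell (44.4%), near its share among all members of the list. The shares of the list depend on which genes it holds and are no result of hairpin 1. The sequences of Mael, Hormad1 and Stag3 are shown because these members fell and hold the E-box; the last 2 were named for this match, and Mov10l1 is the fourth such member, not shown. Hormad1, of the meiotic chromosome axis, was at -0.54 (adjusted p = 0.0216) and the meiotic cohesin gene Stag3 at -0.46 (adjusted p = 0.0179). The windows are at chr1:166238745-166238994 on the minus strand, chr3:95559427-95559676 on the plus strand and chr5:138280259-138280508 on the plus strand in GRCm38.p6, 5′ to 3′ toward the start, with both motifs in capitals.
Mael: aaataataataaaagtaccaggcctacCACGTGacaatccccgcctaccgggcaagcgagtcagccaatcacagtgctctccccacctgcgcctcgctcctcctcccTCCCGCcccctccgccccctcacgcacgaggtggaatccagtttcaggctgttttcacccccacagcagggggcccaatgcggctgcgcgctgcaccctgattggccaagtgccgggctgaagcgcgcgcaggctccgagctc
Hormad1: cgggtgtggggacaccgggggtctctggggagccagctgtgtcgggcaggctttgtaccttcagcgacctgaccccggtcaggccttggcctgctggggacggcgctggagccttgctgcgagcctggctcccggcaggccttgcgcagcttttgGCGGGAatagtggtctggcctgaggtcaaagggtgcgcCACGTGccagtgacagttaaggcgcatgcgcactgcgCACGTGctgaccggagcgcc
Stag3: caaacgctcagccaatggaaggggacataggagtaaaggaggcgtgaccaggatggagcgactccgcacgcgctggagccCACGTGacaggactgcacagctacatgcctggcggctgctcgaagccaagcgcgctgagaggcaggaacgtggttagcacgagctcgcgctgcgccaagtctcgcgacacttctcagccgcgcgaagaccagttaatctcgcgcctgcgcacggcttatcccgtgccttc
The windows of Mael and Stag3 hold 1 E-box each and that of Hormad1 holds 2. These are matches of letters, and binding was not measured here.

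Most genes of the naive and core pluripotent state were not called: of 27 tested, 1 rose and 2 fell (median -0.11), and 1 rose and 4 fell after centring. Besides Dppa3, these were Tbx3, a T-box factor of the naive state, which went from 11.06, 10.85 and 11.10 to 10.26 and 10.22 (-0.77 ± 0.107, SE, limma adjusted p = 0.00429), and the homeobox gene Gbx2 (-0.47, adjusted p = 0.0188). For 14 of the 27 the hairpin 1 arrays lay below all luciferase arrays, against 17.3% of all genes. Of 14 tested genes of the formative and primed states, 6 rose and 1 fell (median 0.28). Sall2, a zinc finger factor gene, was at 0.85 and at 0.47 (adjusted p = 0.00177) by the polish. Lin28b, which blocks let-7 maturation, was at 0.64 (adjusted p = 0.0371), and the POU factor gene Pou3f1 was at 0.57 (adjusted p = 0.0191). This list is sensitive to single arrays, with 0 rises called without hairpin 1 replicate 1, 1 without hairpin 1 replicate 2, 1 without luciferase replicate 1 and 4 or 5 without any other.

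Genes of the 2-cell-like state gave no call among 4 tested, and the largest differences were Tmem92 (-0.29, adjusted p = 0.161) and Zfp352 (0.25, adjusted p = 0.512). Cubn, an endocytic receptor gene of the extraembryonic endoderm, was the 1 of 22 endoderm genes called (-0.87 ± 0.0908, SE, adjusted p = 0.00113), which the stricter filter lowered to -0.35 (adjusted p = 0.091). Kdr, which encodes a VEGF receptor, was the 1 of 15 mesoderm genes called (-0.50, adjusted p = 0.0467), and no mesoderm gene was called once any array was left out.

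Called members of the Hedgehog, Nodal, Notch, FGF, Wnt and LIF lists were higher with hairpin 1, apart from 1 Nodal gene called lower after centring of the arrays, and 2 Nodal genes and 1 FGF gene called lower by the polish. Rises also made up 649 of the 964 calls over all genes, and 3.97% of all genes rose. The single rises of the Wnt and LIF lists are therefore results of single genes and not of the lists. Of 13 Hedgehog pathway genes, 5 rose (median 0.22): the receptor gene Ptch1, which is itself induced by the pathway, went from 9.52, 9.54 and 9.51 to 10.23 and 10.40 (0.79 ± 0.0936, SE, limma adjusted p = 0.00191). The signal transducer gene Smo rose by 0.50, and the ligand-binding antagonist gene Hhip was at 0.69 but at -0.14 (adjusted p = 0.418) with the stricter filter. Without hairpin 1 replicate 1 there was 1 call, without luciferase replicate 1 there were 2 and without hairpin 1 replicate 2 there were 3.

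Of 14 Nodal and TGF-beta genes, 4 rose (median 0.22). Lefty1, a Nodal antagonist gene, stood at 8.98, 8.77 and 8.44 and then at 9.86 and 9.59 (1.00 ± 0.151, SE, limma adjusted p = 0.0059). The Nodal signal transducer gene Smad3 was higher by 0.58 and the repressor gene Skil by 0.55. No call of this list was left without hairpin 1 replicate 1. Of 17 Notch genes, 3 rose: the glycosyltransferase gene Lfng (0.63), the ligand gene Jag2 (0.49) and the target gene Hey1 (0.39); none was called without hairpin 1 replicate 1 or luciferase replicate 1. In the FGF list 2 of 16 rose, the receptor gene Fgfr2 (0.68 ± 0.104, SE, adjusted p = 0.00621) and the ligand gene Fgf15 (0.41, adjusted p = 0.043); neither FGF nor LIF genes were called without hairpin 1 replicate 1. Wnt7b, a Wnt ligand gene, was the 1 of 16 Wnt genes called (0.79, adjusted p = 0.00675; 0.49 (adjusted p = 0.00354) by the polish). Socs2, a cytokine feedback gene, was the 1 of 13 genes of LIF and STAT signalling called (0.62, adjusted p = 0.0197; 0.39 (adjusted p = 0.00803) by the polish). Of 15 BMP and Id genes none was called, with Id2 at -0.41 (adjusted p = 0.0531) and Bmp4 at -0.34 (adjusted p = 0.108).

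Stress-responsive genes rose in part. Of 23 immediate early genes, which cells transcribe within minutes of a stimulus, 5 rose and 1 fell (median 0.14). Klf6 went from 8.60, 8.70 and 8.65 to 9.38 and 9.37 (0.73 ± 0.0959, SE, limma adjusted p = 0.00311), Jun was higher by 0.63 and Egr1 by 0.62 (adjusted p = 0.0436; 0.38 (adjusted p = 0.00817) by the polish), and the gene that fell was Myc (-0.57, adjusted p = 0.00987), named here as the exception. ATF4 is the factor of the amino acid and integrated stress responses. For 16 of its 20 tested targets the hairpin 1 arrays lay above all luciferase arrays, against 20.9% of all genes. Of the 20, 4 rose and none fell (median 0.27). They include the hormone gene Stc2 (0.73; 0.43 (adjusted p = 0.00566) by the polish), the mTORC1 inhibitor gene Ddit4 (0.67) and Chac1, which degrades glutathione (0.60). With 1 array left out, 1 to 3 immediate early genes rose and 2 to 5 ATF4 targets.

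In the hypoxia list 2 of 19 rose, Bhlhe40 and the oxygen sensor gene Egln3, which went from 7.76, 7.93 and 7.89 to 8.74 and 8.73 (0.87 ± 0.0948, SE, adjusted p = 0.00128). None of 20 glycolysis genes was called, the largest differences being Pfkl (0.32, adjusted p = 0.0625) and Pkm (0.31, adjusted p = 0.0695); by the polish 5 of them were called, all higher. In the list of endoplasmic reticulum chaperones 1 of 14 genes rose, Herpud1, which does not itself encode a chaperone. It was at 0.46 (adjusted p = 0.0373) by the median and 0.28 (adjusted p = 0.0179) by the polish. After centring none of the 14 rose and 2 fell. Of 17 p53 targets, 1 fell, Ei24 (-0.47, adjusted p = 0.0311), whose adjusted p was 0.092 and 0.077 when luciferase replicate 1 or 2 was dropped and 0.072 and 0.161 when hairpin 1 replicate 1 or 2 was.

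Lysosomal genes had 3 of 21 members higher (median 0.04). Naaa, which encodes an amidase of N-acylethanolamines, stood at 7.74, 7.61 and 7.58 with luciferase and at 8.81 and 8.87 with hairpin 1 (1.20 ± 0.105, SE, limma adjusted p = 0.000455). Hexa, a hexosaminidase gene, was at 0.87 ± 0.11 (SE, adjusted p = 0.00271) and the membrane protein gene Cd63 at 0.39 (adjusted p = 0.0418), a call lost with any array left out. Dhcr7 was the 1 of 19 cholesterol synthesis genes that rose (0.52, adjusted p = 0.0158). Of 16 interferon response genes, 2 rose, B2m (0.57) and Stat2 (0.48), and 2 fell, the apoptosis gene Xaf1 (-0.53) and the RNA sensor gene Ddx58 (-0.41); without hairpin 1 replicate 1 none of the 16 was called.

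Imprinted genes, active on the maternal or the paternal chromosome alone, rose in 4 of 30 tested members and fell in none (median 0.07). Plagl1, a zinc finger gene, was at 0.73 ± 0.107 (SE, limma adjusted p = 0.00509), the noncoding RNA gene Kcnq1ot1 at 0.63 and at 0.25 (adjusted p = 0.337) with dim probe sets kept, and Phlda2, which restrains placental growth, at 0.41. None was called without hairpin 1 replicate 1. Among chromatin genes, Dnmt3l, the cofactor of DNA methylation, was the 1 of 10 DNA methylation genes that fell (-0.40, adjusted p = 0.0319), and the deacetylase gene Hdac2 the 1 of 13 NuRD and deacetylase genes that fell (-0.52, adjusted p = 0.0444; -0.31 (adjusted p = 0.0244) by the polish). The call of Dnmt3l was lost with any array left out, and that of Hdac2 with any array left out other than luciferase replicate 3.

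None of 18 Polycomb subunit genes was called, with Mtf2 at -0.34 (adjusted p = 0.166) and Eed at -0.27 (adjusted p = 0.106). None of 28 cell cycle genes was called, with Cdkn2b at -0.31 (adjusted p = 0.121) and Pcna at -0.30 (adjusted p = 0.209). Ago1, an Argonaute gene, was the 1 of 10 genes of small RNA processing called (0.71 ± 0.103, SE, adjusted p = 0.00509); without hairpin 1 replicate 1 its adjusted p was 0.051.

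**Figure D2:**
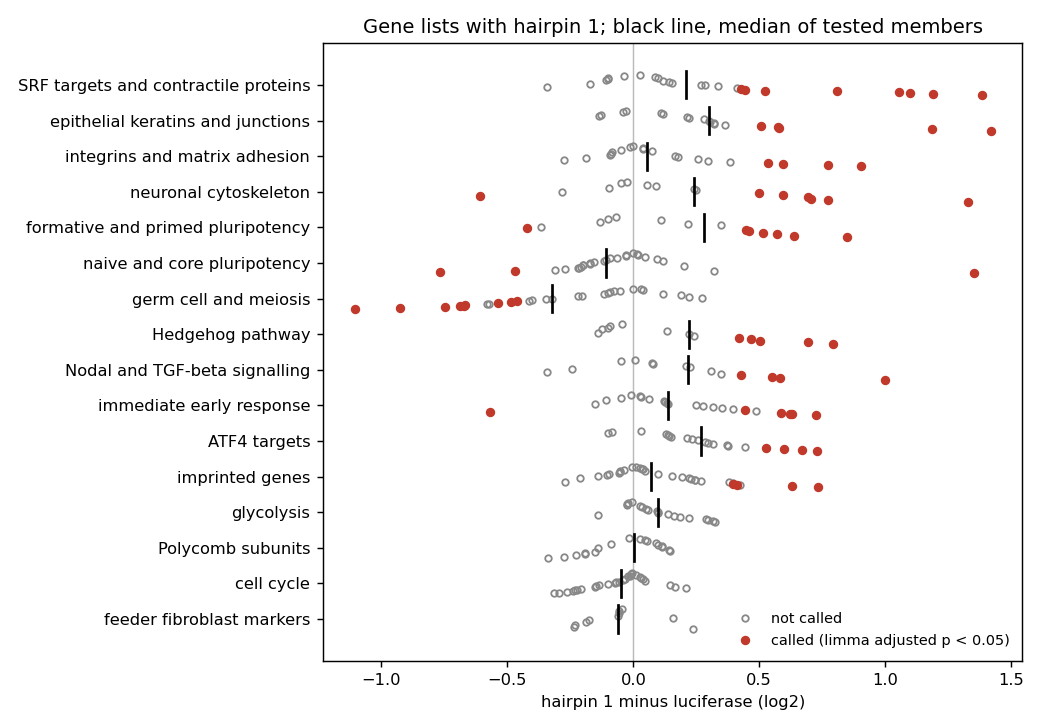
Differences of hairpin 1 minus luciferase for the tested members of 16 gene lists. Each point is a gene on the log2 scale, filled red where limma's adjusted p was below 0.05 and open grey otherwise, and a black line marks the median of the list. The contractile list holds 8 filled points to the right of 0, the germ cell list 9 to the left, and the glycolysis, Polycomb, cell cycle and feeder lists hold none.

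The second question was where hairpin 1 differs from hairpin 2, tested as the difference between the hairpins itself. Of 16353 genes, 17 were called (0.104%), 9 higher with hairpin 1 and 8 lower, and 1435 genes (8.78%) had an unadjusted p below 0.05. This comparison has 2 arrays on each side, and the list of genes rests on every one of them: without any single array, luciferase arrays included, 0 to 4 genes were called, and 0 without the pair that stood apart or with dim probe sets kept, where 1333 and 1538 genes had an unadjusted p below 0.05. Against luciferase, hairpin 2 gave 619 calls (3.79%); the differences of both hairpins from luciferase that follow share the same 3 luciferase arrays.

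Kdm5d differed most. It was at 6.96 and 6.82 on the hairpin 2 arrays, between the luciferase and hairpin 1 values, so hairpin 1 minus hairpin 2 was 1.75 ± 0.137 (SE, limma adjusted p = 0.003). The call held in 6 of the 7 fits with 1 array left out, and without hairpin 2 replicate 2 the value was 1.69 (adjusted p = 0.082). Krt18 stood at 8.95 and 8.82 with hairpin 2 (0.78, adjusted p = 0.0438) and Krt8 at 9.62 and 9.77 (0.75, adjusted p = 0.0448). In these keratins the hairpin 2 arrays lay above the luciferase arrays and below the hairpin 1 arrays.

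Tagln stood at 7.43 and 7.31 with hairpin 2 (0.83, adjusted p = 0.0438), but its hairpin difference by the polish was 0.32 (adjusted p = 0.291). Plin2, which coats lipid droplets, stood at 8.92, 8.94 and 8.92 with luciferase, 9.73 and 9.67 with hairpin 1 and 8.95 and 9.07 with hairpin 2 (0.69 ± 0.0977, SE, adjusted p = 0.0438). Mras, a RAS-related GTPase gene, stood at 9.93, 9.88 and 9.72, 8.90 and 8.93 and 9.62 and 9.72 in the same order of groups (-0.76 ± 0.108, SE, adjusted p = 0.0438). Plin2 and Mras moved mainly with hairpin 1: their differences of hairpin 2 from luciferase were 0.08 (adjusted p = 0.661) and -0.17 (adjusted p = 0.382). Csn3 (0.91) and Shisa6 (0.87) were the other rises with hairpin 1 that were larger than with hairpin 2; the hairpin difference of Csn3 was 0.24 (adjusted p = 0.802) with dim probe sets kept and that of Shisa6 0.44 (adjusted p = 0.188) with the stricter filter. The lens crystallin gene Cryga (0.80) lay lower with hairpin 2 (6.42 and 6.49) than with luciferase (7.10, 6.89 and 7.01), and its hairpin difference was 0.40 (adjusted p = 0.27) by the polish and 0.17 (adjusted p = 0.894) with dim probe sets kept.

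In the other named genes, apart from Eif2s3y, which is taken up below, hairpin 2 lay above luciferase. H19, an imprinted noncoding RNA gene, stood at 7.30, 7.08 and 7.53 with luciferase, 7.21 and 6.97 with hairpin 1 and 8.42 and 8.40 with hairpin 2, and hairpin 1 minus hairpin 2 was -1.32 ± 0.148 (SE, limma adjusted p = 0.0269). The hairpin 1 and luciferase arrays of H19 overlapped. Id2, a dominant-negative helix-loop-helix factor gene, stood at 10.65, 10.70 and 10.59, 10.38 and 10.09 and 11.10 and 11.17 (-0.90 ± 0.118, SE, adjusted p = 0.0438), so the hairpins lay on opposite sides of luciferase, hairpin 1 at -0.41 from it (adjusted p = 0.0531). Plac8 (-1.12) and the protease inhibitor gene Serpinb1a (-0.86) had the same order of groups as Id2, and their hairpin 1 values were not called against luciferase (adjusted p = 0.0959 and 0.0608). Steap3, a ferrireductase gene, was within 0.01 of luciferase with hairpin 1 and higher by 0.71 with hairpin 2, but its hairpin difference of -0.70 was -0.41 (adjusted p = 0.0472) by the polish, -0.36 (adjusted p = 0.199) with the stricter filter and -0.02 (adjusted p = 0.978) with dim probe sets kept. That of Plac8 was -0.65 (adjusted p = 0.53) and that of Serpinb1a -0.46 (adjusted p = 0.472) with dim probe sets kept.

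**Figure D3:**
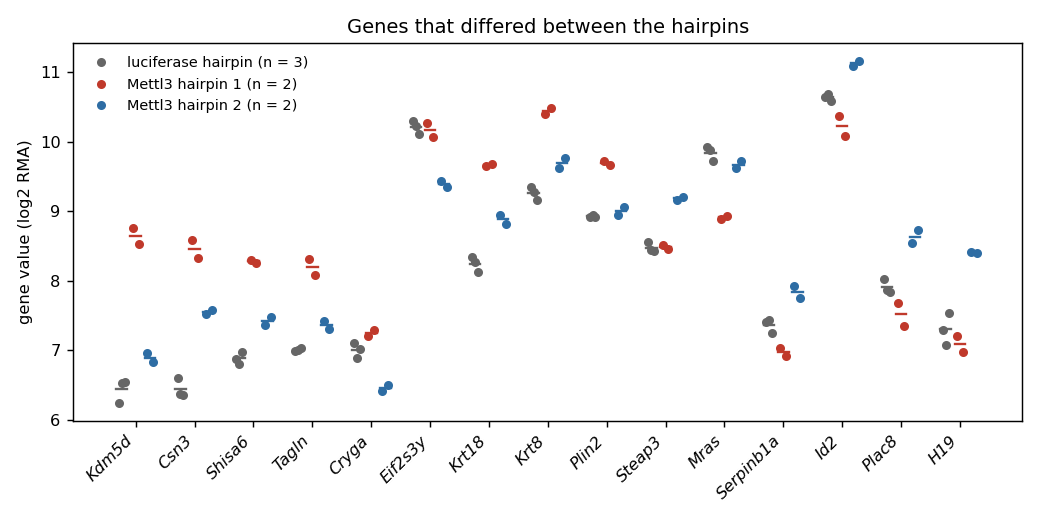
Values of the 15 named genes that differed between the hairpins, ordered by hairpin 1 minus hairpin 2. Points are arrays on the log2 RMA scale (grey luciferase, n = 3; red hairpin 1, n = 2; blue hairpin 2, n = 2) and bars are group means. Kdm5d, Plin2 and Mras show red points away from grey and blue, and Eif2s3y, H19 and Steap3 show blue points away from grey and red.

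Y-linked genes were read together because Kdm5d led both comparisons. J-1 cells are a male line. Eif2s3y, a translation initiation factor gene, stood at 10.30, 10.23 and 10.11 with luciferase, 10.27 and 10.07 with hairpin 1 and 9.43 and 9.35 with hairpin 2; it did not differ detectably between hairpin 1 and luciferase (-0.04, limma adjusted p = 0.849) and was lower with hairpin 2 (-0.82, adjusted p = 0.00391). Uty, a histone demethylase family gene with 3 probe sets, was at 0.28 with hairpin 1 (adjusted p = 0.258) and -0.68 with hairpin 2 (adjusted p = 0.025). Of 7 tested members of this list, only Kdm5d was called with hairpin 1. Of 9 tested genes placed on the Y chromosome, 1700040F15Rik, singled out after its values were seen, was called lower (-0.72 ± 0.133, SE, adjusted p = 0.0135), with both hairpin 1 arrays below all luciferase arrays. None of 6 X-linked partners was called; Kdm5c, the partner of Kdm5d, was at 0.03 (adjusted p = 0.895), Eif2s3x at -0.12 and Usp9x at -0.11.

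The rises with hairpin 1 were then set along the chromosomes, in the gene order of RefSeq's GRCm38.p6 table. This was done after the values had been seen. In 317 windows of 50 neighbouring tested genes, the median of hairpin 1 minus luciferase was above 0.15 in 4: 3 adjacent windows on chromosome 9 (0.26, 0.23 and 0.20) and 1 on chromosome 5 (0.20). The next highest window was at 0.11 and the lowest at -0.12, and for hairpin 2 the windows ranged from -0.11 to 0.13. In hairpin 1 replicate 1 minus luciferase replicates 1 and 2, these windows ranked 1 to 4 of 317. In hairpin 1 replicate 2 minus luciferase replicate 3 they ranked 1, 2, 4 and 5. All 5 arrays had entered the values that picked the windows, so these ranks describe the windows and are no test.

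On chromosome 9 the raised stretch ran over 159 tested genes, from Pstpip1 to Myzap. Of these, 122 (76.7%) were higher with hairpin 1, 39 rose by limma's test (24.5%, against 3.97% of all genes) and none fell. The median difference was 0.24, a 1.18-fold change, and it was 0.28 in replicate 1 and 0.21 in replicate 2. With hairpin 2 the median over the same genes was 0.02, and for hairpin 1 minus hairpin 2 it was 0.21, with 57 genes higher and 0 lower at an unadjusted p below 0.05, against 3.96% higher over all genes. On chromosome 5 the stretch ran over 43 tested genes, from Ap5z1 to Arpc1b: 36 were higher, 10 rose and none fell, and the median was 0.22 with hairpin 1 and 0.00 with hairpin 2. The members were chosen by the values of the hairpin 1 arrays, which enter the comparison with hairpin 2 as well, so the counts of both comparisons describe the stretches and are no test of them.

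Among the genes named above, Tpm1, Hexa, Smad3 and Pkm lie in the stretch on chromosome 9. The stretches hold 202 genes, or 1.24% of those tested, and 7.55% of the rises. Without them 594 genes rose and 309 fell, and 17 genes were called between the hairpins. DNA copy number and the sites of viral insertion were not analysed here, and their part in these values was not tested. Elsewhere, the X chromosome had 45 of 561 tested genes higher (8.02%, against 3.97% of all genes) and 10 lower, without a raised stretch of this kind.

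**Figure D4:**
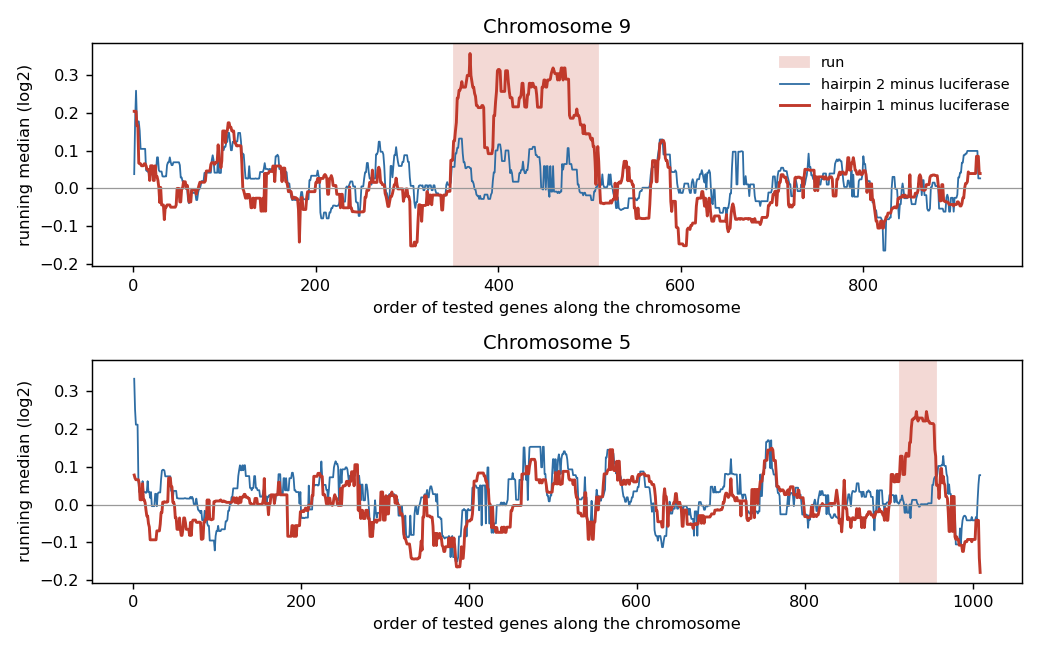
Running medians over 21 neighbouring tested genes along chromosome 9 (top) and chromosome 5 (bottom), on the log2 scale, for hairpin 1 minus luciferase (red) and hairpin 2 minus luciferase (blue). The horizontal axis is the order of tested genes and shading marks the stretches of 159 and 43 genes. Within the shaded stretches the red line stays above 0, with a lowest value of 0.010 on chromosome 9 and 0.080 on chromosome 5, while the blue line runs between -0.03 and 0.13 on chromosome 9 and between -0.04 and 0.07 on chromosome 5.

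Exon usage asks whether probe sets of 1 gene moved apart. Limma's diffSplice called 1204 genes (7.36%), 926 of them with a single deviating probe set. In simulated data of this design, however, 69.9% of its calls were unchanged genes, so no statement here rests on that count. A test with a spread estimated for each probe set, added after this was seen, had 7.58% unchanged genes among its calls in simulation. The simulated noise was independent between probe sets and between arrays, so this share may be too favourable for the real arrays. In the real data this second test called 1 gene (0.00612%), and 2113 genes had an unadjusted p below 0.05.

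That gene was Plagl1 (adjusted p = 0.0242). Of its 16 probe sets, 13 were higher with hairpin 1 and 3 lower. The probe set that rose most went from 5.07, 5.21 and 5.20 with luciferase to 8.32 and 8.16 with hairpin 1, a difference of 3.08. The probe set that fell most went from 9.34, 9.49 and 9.30 to 8.94 and 8.73. The dimmest probe sets rose and the brightest did not, and with hairpin 2 the same 2 probe sets were at 3.82 and -0.10. Probe sets below 6.02 with luciferase, among them that which rose most (mean 5.16), were kept only because the Mettl3 hairpin arrays were higher. The rise of the dimmest is therefore partly built in by the filter. Which transcripts these probe sets belong to was not analysed here.

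The genes that diffSplice ranked first were Septin1, Kdm5d, Gsg1, Nckap1, Plagl1 and Trim67, and by the second test the other 5 had adjusted p-values of 0.077 to 0.311. In Septin1, 12 of 13 probe sets fell and 1 was higher by 0.63. In Nckap1, an actin regulator gene, 1 of 35 probe sets was higher by 1.37 and 33 lay within 0.25 of no change, and the gene as a whole was at 0.06 (adjusted p = 0.772). In Trim67, 1 of 20 was higher by 2.28. These single raised probe sets of Nckap1 and Trim67 had luciferase means of 5.48 and 5.08. They passed the filter at 6.02 only through the Mettl3 hairpin arrays. Kdm5d differs in having every probe set raised, by 0.31 to 4.75, although its dimmest probe sets also passed the filter only through the Mettl3 hairpin arrays.

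**Figure D5:**
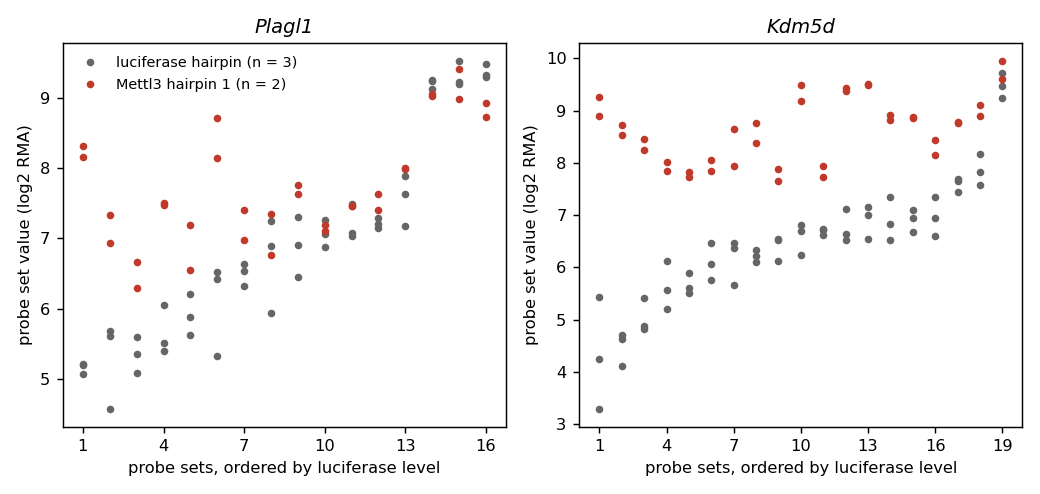
Values of single probe sets of Plagl1 (left, 16 probe sets) and Kdm5d (right, 19 probe sets), ordered by their luciferase level. Points are arrays on the log2 RMA scale, grey for luciferase (n = 3) and red for hairpin 1 (n = 2). In Plagl1 the red points lie above grey on the left and level or below on the right, and in Kdm5d they lie above grey at every probe set but the brightest, where the groups overlap. In both genes, probe sets with a luciferase mean below 6.02 were kept only because the Mettl3 hairpin arrays were higher.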

How the data were processed

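Total RNA of 7 samples was hybridised to Affymetrix Mouse Exon 1.0 ST arrays. The deposited values are log2 intensities of 1201338 probe sets; per the submitters' processing notes, RMA and R 2.11.1 were used. RMA equalises the distributions of the arrays, which hides any global change of RNA. The sources used here name no genome build, detection p-values or scan dates. Symbols came from the platform annotation (311384 probe sets with 1 symbol, 6385 with several, 883569 with none), updated through RefSeq's GRCm38.p6 gene table for 45560 probe sets.

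A gene value was the per-array median of probe sets with exactly 1 symbol and a mean above the median of all (6.02), with at least 3 required: 229811 probe sets, 16353 genes, a median of 11 each. That mean was taken over all 7 arrays, so a probe set below 6.02 in 1 group was kept only where other arrays were higher. Limma 3.58.1 in R 4.3.3 was fitted to all 7 arrays with 1 mean per group (4 residual degrees of freedom), with Benjamini-Hochberg adjustment over all genes. The number of arrays limits the precision. In data simulated on this design, 99.5% of genes changed by 1 and 64% of those changed by 0.5 were called for hairpin 1 minus luciferase. Of the calls, 4.39% were unchanged genes. Between hairpins, 98.5% and 56% of the changed genes were called. The simulated noise was independent for every probe set and array, with no part shared within a gene or an array. These shares may therefore be too favourable for the real arrays. Exon usage was tested with diffSplice, and then with each probe set's difference from the mean of the other probe sets of its gene.

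The comparison, its gene lists and tests were chosen with earlier results of these data known. Named genes are Mettl3; the 15 largest changes per direction for hairpin 1 and up to 12 per direction between hairpins, among called genes whose arrays do not overlap; up to 3 called members per list, or the 2 largest differences where none was called; list members called between hairpins; and the 6 smallest exon usage p-values. Predicted genes, clones and receptor or small RNA genes were not named by this rule. The following genes lie outside the rule and were added with their values known. Hormad1, Stag3, Mov10l1, Vcl and Cnn2 were added for their promoters, and Myc and Ddx58 to complete a count. Mettl14, Uty and Kdm5c were added as partners of named genes, and the clone 1700040F15Rik for its fall among genes on the Y chromosome. Genes at the ends of the raised stretches mark their limits. Alternatives were other filters, a mean or median polish of probe sets, quantile normalization or centring, other spread models, 2 groups only, a replicate block, a fold threshold and each array left out. Replicate numbers do not pair the samples: deviations from group means of same-numbered arrays correlated at -0.26 to 0.08.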

Additional observations from a re-analysis of the deposited data

Results flagged for a closer look

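The named genes that differed between the 2 Mettl3 hairpins by limma's test of the difference itself are given here with that difference. Hairpin 1 minus hairpin 2 was 1.75 for the Y-linked demethylase gene Kdm5d, 0.91 for Csn3, 0.87 for Shisa6, 0.83 for Tagln, 0.80 for Cryga, 0.78 for the Y-linked gene Eif2s3y, 0.78 for Krt18, 0.75 for Krt8 and 0.69 for the lipid droplet gene Plin2. It was -0.70 for Steap3, -0.76 for Mras, -0.86 for Serpinb1a, -0.90 for Id2, -1.12 for Plac8 and -1.32 for the imprinted gene H19. Each value rests on 2 arrays against 2, and with 1 array left out 0 to 4 genes passed.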

How the results depend on the processing

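The arrays are few and RMA values carry no depth, no difference below 0.34 on the log2 scale was called for hairpin 1, and dim probe sets have the least signal over background. Mettl3 kept its direction and call in every alternative, at -1.11 to -1.65. Of 86 named genes called for hairpin 1 minus luciferase, 34 kept the call in every alternative, 46 did so with each array left out in turn, and 40 lost it without at least 1 array. Values that changed sign were Map1b (-0.37) and the uncalled Tmem92 (0.14) with dim probe sets kept, and Hhip (-0.14) with the stricter filter.

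The 964 genes called for hairpin 1 became 320 with dim probe sets kept, 2259 with the mean and 2072 with the median polish of probe sets, 92 when tested against a change of 0.3, and 271 to 729 with 1 array left out; among alternatives chosen after seeing the data, 266 were called without both arrays that stood apart. Other settings gave 729 to 1337, with 711 rises and 448 falls after quantile normalization. The 17 genes called between hairpins became 0 with dim probe sets kept, 26 with the stricter filter, 79 with the mean, 76 with the polish, 29 with a trended and robust spread, 2 with the 4 arrays of the hairpins alone, 1 against a change of 0.3, 0 to 4 with 1 array left out and 0 without both arrays that stood apart. In limma's fits with 0 calls, 1538 genes had an unadjusted p below 0.05 with dim probe sets kept, 1016 without hairpin 2 replicate 2, 1333 without both arrays and 1524 with the crossed block. Exon usage calls, 1204 by diffSplice, became 735 with 2 groups only, 1 with a spread per probe set and 530 to 1969 with 1 array left out. With the replicate number as a replicate block, which leaves out luciferase replicate 3, 460 genes were called for hairpin 1, 3 between hairpins and 969 for exon usage; with the numbers of hairpin 2 crossed, chosen after seeing the data, the block gave 389 and 0. The numbers do not pair the samples, and the cause of these shifts was not tested.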
